A study of Mus musculus with 25 samples.

Results

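The genes described here are the sterol synthesis and SREBP2 pathway genes, 28 members chosen by name, measured in perigonadal fat (perigonadal white adipose tissue, pgWAT) of mice. A member was taken from the array probes that carry its name, with the brightest probe over 25 arrays standing for the gene, and 27 of 28 members had a probe, out of 26420 gene names on the arrays. Acat2, which makes acetoacetyl-CoA, had no probe under its own name. The brightest probes of all 27 members were well above background on 25 of 25 arrays. All mice were C57BL6/J males that were fasted for 24 h and then refed for 18 h with chow and 20% glucose in the drinking water, a regimen that raises the activity of the glucose-sensing transcription factor ChREBP. ChREBPβ KO mice (6 arrays) lack the β isoform after CRISPR/Cas9 removal of its own exon of Mlxipl in every tissue, total ChREBP KO mice (5 arrays) are Mlxipl-null and lack the α and β isoforms in every tissue, and each knockout was set beside wild-type mice of its own line (ChREBPβ WT, 7 arrays, and total ChREBP WT, 7 arrays). Age was not given in the sources used here. All tissue is bulk fat, in which fewer cells of a type and less RNA per cell cannot be told apart.

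Cells make cholesterol from acetyl-CoA through mevalonate, isoprenoid diphosphates, squalene and lanosterol. The transcription factor SREBP2, encoded by Srebf2, sits in the endoplasmic reticulum with its escort Scap. When membrane sterols are plentiful, Insig proteins hold the pair there. When sterols run low, SREBP2 is carried to the Golgi, is cut free and switches on the synthesis genes together with Insig1 itself. Its sister factor SREBP1, encoded by Srebf1, favours fatty acid synthesis, which is also what ChREBP drives, so that sterol and fatty acid genes can be compared side by side in the same fat pads.

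The stretches below are the 250 bases before the annotated start of 6 members, read 5′ to 3′ on the strand of the gene, from RefSeq on GRCm38.p6. They are shown because Hmgcs1, Insig1, Msmo1 and Idi1 rose in total ChREBP KO pgWAT, whereas Cyp51 and Lss differed between the mouse lines and were not called in either knockout. They lie at chr13:119690101-119690350 (Hmgcs1, + strand), chr5:28071162-28071411 (Insig1, + strand), chr8:64733579-64733828 (Msmo1, - strand), chr13:8885356-8885605 (Idi1, + strand), chr5:4104698-4104947 (Cyp51, - strand) and chr10:76531355-76531604 (Lss, + strand). Capitals mark matches, on either strand, to TCACNCCAC (a sterol response element form), CACGTG (an E-box), CCAAT (the NF-Y core, ATTGG on the other strand) and GGGCGG (a GC box, CCGCCC on the other strand).
Hmgcs1: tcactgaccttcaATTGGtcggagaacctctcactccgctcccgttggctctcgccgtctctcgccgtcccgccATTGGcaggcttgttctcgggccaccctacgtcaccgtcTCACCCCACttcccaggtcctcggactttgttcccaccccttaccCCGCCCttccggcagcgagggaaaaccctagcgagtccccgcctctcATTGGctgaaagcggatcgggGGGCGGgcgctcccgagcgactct
Insig1: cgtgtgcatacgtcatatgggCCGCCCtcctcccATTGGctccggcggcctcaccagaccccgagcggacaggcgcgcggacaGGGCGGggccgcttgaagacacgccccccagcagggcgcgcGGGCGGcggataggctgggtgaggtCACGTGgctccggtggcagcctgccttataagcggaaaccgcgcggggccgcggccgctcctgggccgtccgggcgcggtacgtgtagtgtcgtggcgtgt
Msmo1: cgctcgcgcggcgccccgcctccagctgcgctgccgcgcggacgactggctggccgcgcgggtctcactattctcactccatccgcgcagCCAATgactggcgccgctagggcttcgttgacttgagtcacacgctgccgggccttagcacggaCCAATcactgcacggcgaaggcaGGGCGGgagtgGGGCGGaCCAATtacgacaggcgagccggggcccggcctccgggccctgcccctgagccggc
Idi1: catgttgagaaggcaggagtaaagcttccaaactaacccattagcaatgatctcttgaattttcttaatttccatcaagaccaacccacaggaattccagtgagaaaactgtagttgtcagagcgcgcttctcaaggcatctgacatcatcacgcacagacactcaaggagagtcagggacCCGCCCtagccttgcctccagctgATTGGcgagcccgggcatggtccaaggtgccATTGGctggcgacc
Cyp51: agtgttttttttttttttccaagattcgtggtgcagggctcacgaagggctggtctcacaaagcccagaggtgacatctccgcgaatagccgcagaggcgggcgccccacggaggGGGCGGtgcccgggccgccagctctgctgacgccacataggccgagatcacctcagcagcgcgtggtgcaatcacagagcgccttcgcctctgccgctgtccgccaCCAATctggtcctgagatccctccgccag
Lss: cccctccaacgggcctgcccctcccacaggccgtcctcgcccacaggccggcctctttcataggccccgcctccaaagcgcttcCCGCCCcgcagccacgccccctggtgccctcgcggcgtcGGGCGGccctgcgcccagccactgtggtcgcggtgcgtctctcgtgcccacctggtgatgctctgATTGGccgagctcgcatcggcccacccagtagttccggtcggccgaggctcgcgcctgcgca

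RefSeq windows were found for 23 of 28 members, and 4 of these had several windows. A member was counted if any of its windows held a match, whereas the shares over all genes are of single windows, which favours the members. CCAAT lay in the windows of 21 of those 23 genes, against 33.8% of 32851 windows of all genes. GGGCGG was also found for 21 of 23 genes, against 32.7% of all windows. The single member with TCACNCCAC was Hmgcs1 (1.05% of all windows), and CACGTG was found for 5 members, among them Insig1 (6.02% of all windows). Each of the 6 stretches held CCAAT and GGGCGG, so these letters did not set the members that rose in the knockout apart from Cyp51 and Lss. A match is a description of the letters and not of binding.

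The levels below are log2 intensities of the series table, in which 1 unit is a doubling, and a difference is called where the limma p-value, adjusted by Benjamini-Hochberg over all 40561 probes, is under 0.05. Mlxipl, the targeted gene, fell by 1.77 in total ChREBP KO (adjusted p = 1.11e-08), and its difference was -0.74 in ChREBPβ KO (adjusted p = 0.116), with all KO arrays below all WT arrays of their line. Adipocyte markers were bright in every group, with a mean of 16.63 to 16.90 over 8 of 8 genes. Liver markers (10 of 10 measured, among them Alb) varied widely between arrays, from 6.38 to 15.76 in mean level, and averaged 14.40 over the ChREBPβ WT arrays and 13.03 over the ChREBPβ KO arrays, but 9.35 over the WT and 6.75 over the KO arrays of the total ChREBP line. Kidney markers (5 of 8 measured) were raised in ChREBPβ WT replicates 1, 3 and 7, with means of 10.52, 10.74 and 9.57, and stood at 8.40 or below on the other arrays. Male duct markers (2 of 8 measured) had a mean of 15.62 on total ChREBP WT replicate 2 and between 4.55 and 10.21 elsewhere, with at least 1 array above 8 in every group. Total ChREBP WT replicate 2 also had the lowest sterol gene mean of its group (12.50). Results are therefore also given without these 4 arrays, although lower signal of other organs remained on others.

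Sterol genes were higher in total ChREBP KO than in total ChREBP WT pgWAT. Averaged over the 27 members, the WT arrays had a level of 12.72 ± 0.10 (SD, n = 7), and the KO arrays reached 12.99 ± 0.07 (SD, n = 5). On the 5 KO arrays it was 12.99, 12.94, 13.01, 12.91 and 13.10, and the highest WT array was at 12.80, so the groups did not overlap. Of 27 members, 7 were called higher, where 5.62% of all genes were, and 0 were called lower, where 3.63% of all genes were. The median member difference was 0.22, against 0.02 over all genes. Taken inside each of the 4 wash batches the median came to 0.17, 0.19, 0.18 and 0.36. Every KO array was above every WT array for 8 members, whereas 4.31% of all genes showed that order. The 7 called members rose in all 4 wash batches, but where KO and WT arrays did not overlap this was fixed by their order. Total ChREBP KO had a single array in each of wash batches 2, 3 and 4. The adipocyte marker mean was 16.90 in KO and 16.63 in WT arrays, with a median marker difference of 0.28. No fit had an adipocyte covariate, and the part of this shift in the result was not tested. The liver marker mean was 6.75 in KO and 9.35 in WT arrays, and its part was not tested beyond the fits with marker covariates given below.

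Among the isoprenoid steps, Hmgcs1, the cytosolic synthase that commits acetyl groups to the pathway, rose the most. Its probe (on an unplaced contig of chromosome 13 in mm9) was at 14.65 to 15.64 (median 15.37) in total ChREBP WT, and at 16.21, 15.85, 16.26, 16.13 and 16.05 on the KO arrays. Every KO array was brighter than every WT array, and the difference was 0.85 (SE 0.14, 1.80-fold, adjusted p = 0.00041). A second, dimmer Hmgcs1 probe gave 0.76 (adjusted p = 0.0235).

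Idi1, the isomerase that readies the isoprenoid unit for chain growth (probe at chr13:8891524-8891583, mm9), was at 12.46 to 13.29 (median 13.22) in WT and at 13.70, 13.53, 13.72, 13.50 and 13.67 in KO. The arrays of the groups did not overlap, and the difference was 0.51 (SE 0.15, adjusted p = 0.0305). The call was lost without any 1 of total ChREBP WT replicates 2 and 4 and KO replicates 1, 3 and 7 (0.42 without WT replicate 2). Mvk, the kinase that acts on mevalonate, was at 13.38 to 13.88 (median 13.79) in WT and at 14.09, 14.11, 14.02, 14.09 and 13.82 in KO. One KO array, replicate 7, lay inside the WT range, and the difference was 0.30 (SE 0.08, adjusted p = 0.0148), with the call lost without KO replicate 1. The brightest probes of the other 4 measured members of this stretch, Pmvk, Mvd, Fdps and Ggps1, had differences of 0.06 to 0.22 with adjusted p from 0.504 to 0.882. Fdps, which joins isoprenoid units into farnesyl diphosphate, was nonetheless at 15.10 to 15.21 in KO and 14.66 to 15.07 in WT, without overlap.

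Of the squalene and lanosterol steps, Fdft1, the squalene synthase, was called higher. It was at 13.38 to 13.73 (median 13.65) in WT and at 13.97, 14.00, 13.94, 13.99 and 13.69 in KO, a difference of 0.28 (SE 0.09, adjusted p = 0.0481). KO replicate 7 lay inside the WT range. The call stood close to the threshold, being kept in 7 of 25 fits that each left out 1 array, and the second Fdft1 probe gave 0.26 (adjusted p = 0.162). Sqle, the squalene epoxidase, was not called at 0.38 (SE 0.12, adjusted p = 0.0527), although its KO arrays at 13.11 to 13.19 all lay above its WT arrays at 12.38 to 12.91. Lss, which closes the ring to make lanosterol, had a difference of -0.11 (95% interval -0.41 to 0.20).

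Between lanosterol and cholesterol the members differed from each other. Msmo1, the oxidase that strips methyl groups from the sterol ring (probe at chr8:67196982-67197041, mm9), was at 12.77 to 13.15 (median 12.98) in WT and at 13.92, 13.88, 13.96, 13.82 and 14.27 in KO. No array came near the other group, and the difference of 0.96 (SE 0.10, 1.95-fold, adjusted p = 8.04e-07) had the lowest adjusted p of the 27 members. A second probe gave 0.92 (adjusted p = 0.000105) and another, much dimmer one 0.38 (adjusted p = 0.192). Tm7sf2, a sterol reductase, was at 11.04 to 11.78 (median 11.35) in WT and at 12.16, 12.05, 12.18, 12.16 and 12.47 in KO. The groups did not overlap, and the difference was 0.80 (SE 0.25, adjusted p = 0.0463), a call kept in 8 of 25 fits that left out 1 array. Its second probe gave 0.73 (adjusted p = 0.0636).

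Cyp51, the lanosterol demethylase that acts just before Tm7sf2 and Msmo1, had a difference of -0.13 (95% interval -0.42 to 0.15). Its levels were 12.56 to 13.00 in WT and 12.66, 12.87, 12.76, 12.36 and 12.81 in KO, which overlap. The other 6 members of this stretch, Lbr, Nsdhl, Hsd17b7, Ebp, Sc5d and Dhcr7, had differences between -0.12 and 0.26 and none was called. Among them Ebp, the sterol isomerase, had a difference of 0.26 (adjusted p = 0.118), with the lowest KO and the highest WT array both at 14.41 after rounding and the KO array above.

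Of the sterol sensors, Insig1, which retains the SREBP2 and Scap pair and is itself induced by it, rose. Its probe (chr5:28404246-28404305, mm9) was at 11.15 to 11.83 (median 11.75) in WT and at 12.60, 12.49, 12.81, 12.33 and 12.95 in KO, a difference of 0.98 (SE 0.17, 1.98-fold, adjusted p = 0.000432). All KO arrays lay above all WT arrays. Its relative Insig2 had a difference of 0.25 (SE 0.12, adjusted p = 0.24). Srebf2 itself was at 10.74 to 11.17 (median 10.99) in WT and at 11.06, 10.82, 11.09, 11.11 and 10.97 in KO. These levels overlapped throughout, with a difference of 0.01 (95% interval -0.16 to 0.18), and Scap had 0.05 (-0.07 to 0.17). The transport and turnover members, namely Stard4, Npc1, Npc2 and Mylip, which move sterols between membranes, release them from lysosomes or mark lipoprotein receptors for breakdown, had differences of 0.07 to 0.28 with 0 calls.

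**Figure D1:**
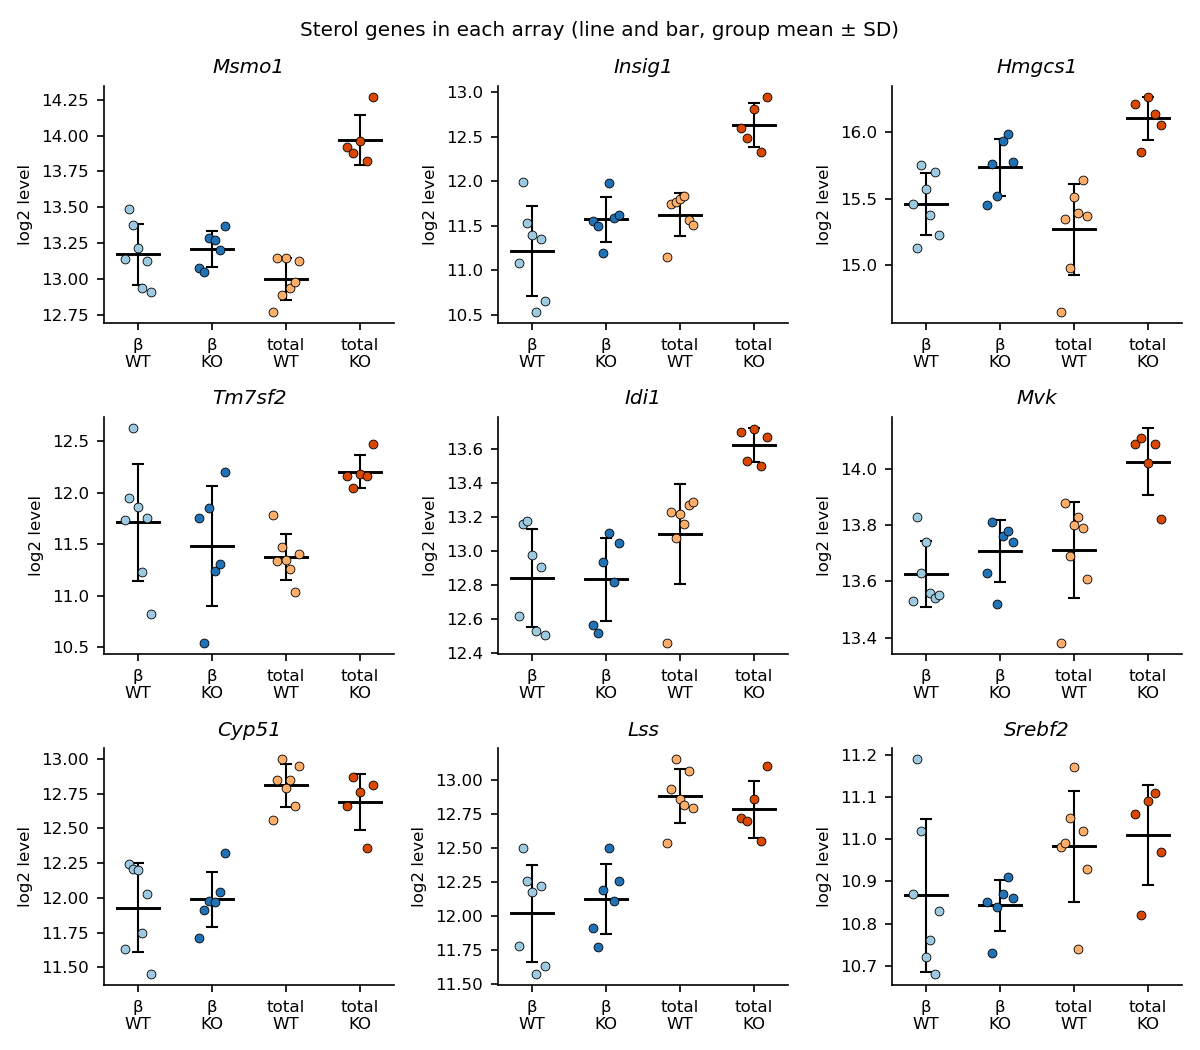
Log2 level of 9 members on each array (points), with the group mean as a line and ± SD as a bar, in the 4 groups; each panel has its own axis, which does not start at 0. The total ChREBP KO arrays of Msmo1, Insig1, Hmgcs1, Tm7sf2 and Idi1 lie above all total ChREBP WT arrays, Cyp51 and Lss separate by line, and Srebf2 overlaps in all groups.

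The comparison was repeated without the arrays with the highest kidney or male duct markers. Without total ChREBP WT replicate 2, 5 members were called, with Idi1 (0.42, adjusted p = 0.0514) and Fdft1 (0.24, adjusted p = 0.0885) lost. Without that array and the 3 ChREBPβ WT arrays with high kidney markers, 6 were called, and Msmo1 was at 0.94, Insig1 at 0.96 and Hmgcs1 at 0.75. With the liver marker score as a covariate, 5 were called, of which 4 were among the 7 (Hmgcs1, Tm7sf2, Msmo1 and Insig1), and Mvk (0.27, adjusted p = 0.0971), Idi1 (0.53, adjusted p = 0.0865) and Fdft1 (0.26, adjusted p = 0.18) were lost. The calls fell to 4 without total ChREBP WT replicate 4 or KO replicate 3 and to 3 without KO replicate 1. Msmo1, Insig1 and Hmgcs1 were called in all 16 alternatives and all 25 fits that left out 1 array.

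In ChREBPβ KO pgWAT no member passed the test. Averaged over the members, the WT arrays of this line had a level of 12.54 ± 0.19 (SD, n = 7) and the KO arrays one of 12.59 ± 0.11 (SD, n = 6). Of 27 members 0 were called in either direction, where 0% of all genes were called higher and 0% lower. At an unadjusted p under 0.05 there were 3 members and 2497 of 26420 genes, and no other setting called a member. The median difference was 0.06 (0.02 over all genes), but it changed sign between wash batches, at -0.11, -0.40, 0.14 and 0.44. Wash batch 2, at -0.40, held a single array of each genotype, so spread between mice and batch cannot be told apart there.

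Insig1 was at 10.53 to 11.99 (median 11.35) in ChREBPβ WT and at 11.19 to 11.98 (median 11.57) in ChREBPβ KO, a difference of 0.37 (95% interval 0.04 to 0.71, adjusted p = 0.496). Hmgcs1 was at 15.13 to 15.75 (median 15.46) in WT and 15.45 to 15.98 (median 15.77) in KO, a difference of 0.30 (0.01 to 0.58, adjusted p = 0.536). The groups overlapped for both genes. Scap, at -0.13 (-0.24 to -0.02, adjusted p = 0.478), was the remaining member with an unadjusted p under 0.05. Msmo1 had 0.04 (-0.15 to 0.24) and Srebf2 -0.03 (-0.19 to 0.12). The 95% intervals of all members lay between -0.73 (Tm7sf2) and 0.71 (Insig1), so that no larger difference in either direction was within them.

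**Figure D2:**
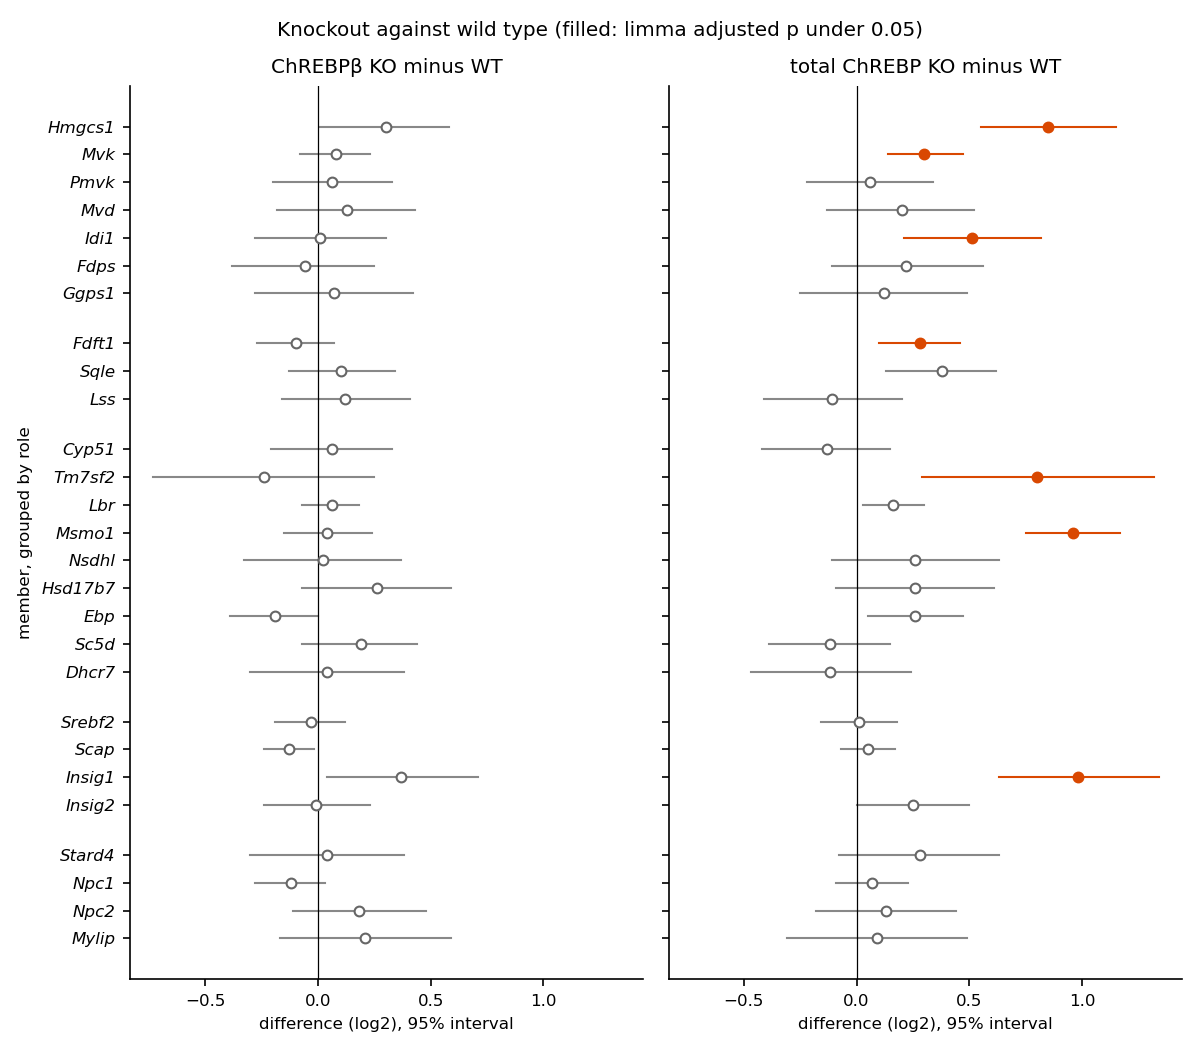
Log2 difference of KO minus WT (point) with its 95% interval (line) for 27 members, grouped from top to bottom by role, in the ChREBPβ line (left) and the total ChREBP line (right); filled points passed the limma test. The 7 filled points are all on the right and to the right of 0, from Fdft1 at 0.28 to Insig1 at 0.98.

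The difference between the knockout effects was tested directly. Msmo1 passed (0.92, SE 0.14, adjusted p = 0.000248), being 1 of 27 members called larger in the total ChREBP line, where 1.35% of all genes were, and 0 were called smaller, where 2.13% of all genes were. The median over the members was 0.20 (0.00 over all genes). Its second probe gave 0.98 (adjusted p = 0.00366). For the other 6 members that rose in total ChREBP KO, the difference between effects was 1.04 for Tm7sf2, 0.61 for Insig1, 0.55 for Hmgcs1, 0.50 for Idi1, 0.37 for Fdft1 and 0.23 for Mvk, with adjusted p from 0.104 to 0.371. None of these 6 passed in the fit reported here, but Tm7sf2 passed with array quality weights (1.05, adjusted p = 0.0281), the liver score (1.20, adjusted p = 0.03) and the 3 marker scores (1.14, adjusted p = 0.0353), and Fdft1 with array quality weights (0.37, adjusted p = 0.0299). The count was 4 without ChREBPβ KO replicate 8 (Msmo1, Tm7sf2, Fdft1 and Ebp), and 2 without ChREBPβ WT replicate 1 (Msmo1 and Ebp) or replicate 8 (Msmo1 and Tm7sf2).

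The control mice of the lines did not have the same sterol gene levels. Total ChREBP WT and ChREBPβ WT mice differ in line and litter, and any cause in breeding or housing cannot be told apart from line. Of 27 members 9 were higher in total ChREBP WT, where 13.5% of all genes were, and 3 were lower, where 8.51% of all genes were. The median was 0.23 (0.04 over all genes). Mlxipl, the targeted gene, was itself called higher in total ChREBP WT, by 0.91 (mean 15.98 against 15.07), without overlap. Between knockouts its difference was -0.12 and not called. The part of this in the sterol gene differences between lines was not tested.

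The members with the largest difference were Cyp51 and Lss, which were not called in either knockout. Cyp51 was at 11.45 to 12.24 (median 12.03) in ChREBPβ WT and at 12.56 to 13.00 (median 12.85) in total ChREBP WT, without overlap, a difference of 0.88 (SE 0.12, adjusted p = 6.14e-05). Lss was at 11.57 to 12.50 (median 12.18) and at 12.54 to 13.16 (median 12.86), also without overlap, a difference of 0.86 (SE 0.13, adjusted p = 0.000137). The other probes of both genes had the same direction and were called (Cyp51 1.08, Lss 0.46 and 1.02). The probes used lie at chr5:4082122-4082181 (Cyp51) and chr10:76016592-76016651 (Lss) in mm9.

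Further members were higher in total ChREBP WT with overlapping arrays. Mvd, which makes the first isoprenoid diphosphate, ran from 10.58 to 11.60 in ChREBPβ WT and 11.23 to 11.91 in total ChREBP WT (difference 0.75, adjusted p = 0.000731). Nsdhl, a dehydrogenase that works with Msmo1, ran from 11.18 to 12.52 and 12.20 to 12.76 (0.70, adjusted p = 0.0035). Mylip ran from 10.60 to 12.10 and 11.81 to 12.61 (0.66, adjusted p = 0.01). Mylip, a ligase that marks lipoprotein receptors for breakdown, was not called without the 4 arrays with the highest kidney or male duct markers (0.35, adjusted p = 0.284) and was at -0.03 with the 3 marker scores as covariates. Pmvk, the kinase after Mvk, ran from 14.62 to 15.67 and 15.12 to 15.88 (0.55, adjusted p = 0.0027). Sqle ran from 11.82 to 12.66 and 12.38 to 12.91 (0.49, adjusted p = 0.00255). Hsd17b7, a ketone reductase of the sterol ring (10.78 to 12.17 and 11.46 to 12.39, 0.44, adjusted p = 0.0447), and Fdft1 (13.18 to 13.70 and 13.38 to 13.73, 0.23, adjusted p = 0.042) completed the 9. The 3 lower members were Insig2 (12.24 to 13.00 in ChREBPβ WT and 11.99 to 12.34 in total ChREBP WT, -0.43, adjusted p = 0.00711), Ebp (14.25 to 14.84 and 14.18 to 14.41, -0.30, adjusted p = 0.0202) and Npc1, a lysosomal sterol exporter (11.43 to 12.09 and 11.26 to 11.55, -0.23, adjusted p = 0.0207). With the 3 marker scores as covariates these 3 turned to 0.20, 0.18 and 0.16, none called. A second Ebp probe gave -0.06 (adjusted p = 0.773). Hmgcs1 and Msmo1, which led in the knockout, had -0.19 and -0.17 and were not called. Calls on Hsd17b7 and Fdft1 were kept in 9 and 14 of 25 fits that left out 1 array, and Ebp was lost without ChREBPβ WT replicate 3, 4 or 7.

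Liver markers moved with this comparison. All 10 were lower in total ChREBP WT, with a median difference of -5.44, and the marker mean ran from 11.84 to 15.76 in ChREBPβ WT and from 6.67 to 12.78 in total ChREBP WT. With the liver score as a covariate 4 members were called, among them Cyp51 (1.09) and Lss (1.07). With liver, kidney and male duct scores the 1 called member was Cyp51 (1.34, adjusted p = 0.0461). The liver means of the wild types overlapped only through ChREBPβ WT replicate 1 (11.84) and total ChREBP WT replicate 2 (12.78). Both are among the 4 arrays with the highest kidney or male duct markers, so these fits can hardly tell liver signal apart from line. Without the 4 arrays with the highest kidney or male duct markers, 6 of the 12 calls remained (Pmvk, Mvd, Sqle, Lss, Cyp51 and Hsd17b7), all higher, and 0 members were lower.

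**Figure D3:**
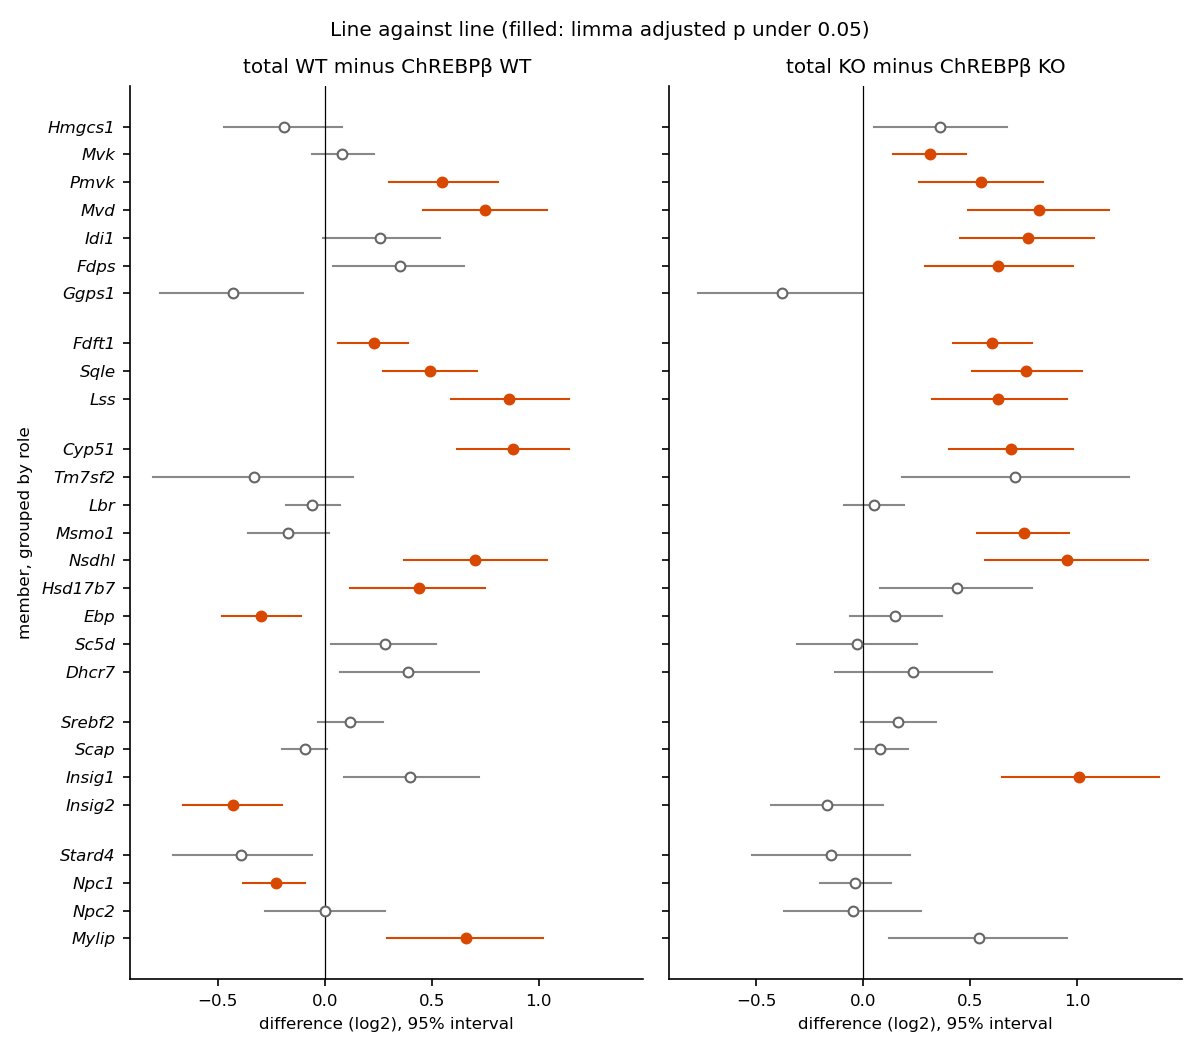
Log2 difference of the total ChREBP line minus the ChREBPβ line (point) with its 95% interval (line) for 27 members grouped by role, between wild types (left) and between knockouts (right); filled points passed the limma test. On the left 9 filled points are above 0 and 3 below, and on the right all 12 are above 0.

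Between the knockouts, 12 members were higher in total ChREBP KO, where 11.4% of all genes were, and 0 were lower, where 6.86% of all genes were. The median was 0.44 (0.03 over all genes). This comparison shares its arrays with those above. Every total ChREBP KO array lay above every ChREBPβ KO array for 13 members, an order shown by 8.01% of all genes. All 3 squalene and lanosterol genes were called, with Sqle at 0.76 (adjusted p = 0.000208), Lss at 0.63 (adjusted p = 0.00545) and Fdft1 at 0.60 (adjusted p = 0.000103). Insig1 had the largest difference, 1.01 (SE 0.17, adjusted p = 0.000388), followed by Nsdhl at 0.95 (SE 0.18, adjusted p = 0.00109).

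Mvd (0.82), Idi1 (0.77), Msmo1 (0.75), Cyp51 (0.69), Fdps (0.63), Pmvk (0.55) and Mvk (0.31) were called as well, with adjusted p from 6.05e-05 to 0.0106. Hmgcs1 was not, at 0.36 (adjusted p = 0.104), although its dimmer probe gave 0.89 (adjusted p = 0.00578). Srebf2 had 0.16 (adjusted p = 0.189) by its brightest probe and 0.37 (adjusted p = 0.0228) by a dimmer one, which also gave 0.28 between the wild types (adjusted p = 0.04). One dimmer Lss probe gave 0.09 (adjusted p = 0.778) and the other 0.77 (adjusted p = 0.00284). Further probes were also called for Ebp (0.44, adjusted p = 0.0232), Hsd17b7 (0.63 and 0.62) and Tm7sf2 (0.71, adjusted p = 0.0495), whose brightest probes were not, and a second Sqle probe was not called (0.09, adjusted p = 0.478). The probes of these 7 genes therefore disagreed on the call. The liver marker mean was 10.41 to 15.10 in ChREBPβ KO and 6.38 to 7.50 in total ChREBP KO, without overlap. With the liver score as a covariate 8 of the 12 calls were kept. That fit carries a slope across a gap in liver level between these groups, so it cannot tell liver signal apart from line.

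**Figure D4:**
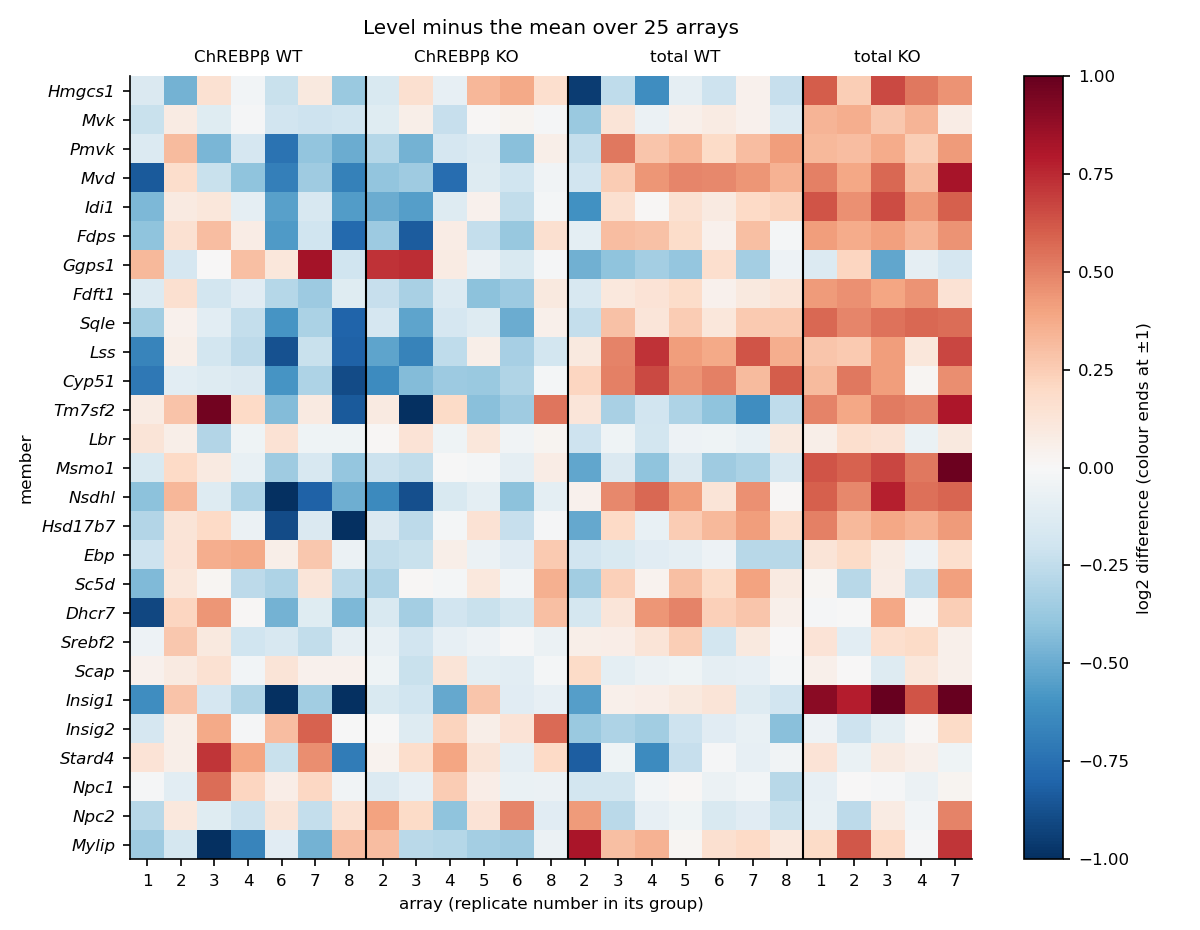
Level of each member (rows) on each array (columns, ordered by group, numbered by replicate) minus its mean over 25 arrays, in log2 units, with the colour scale ending at -1 and 1. The total ChREBP KO columns are red for most members from Hmgcs1 to Hsd17b7 and for Insig1, but not for Ggps1, and Lbr, Srebf2 and Scap stay near white on all arrays.

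Neighbouring pathways in the same arrays were described from lists of their own. In total ChREBP KO, most of the SREBP1 arm of fatty acid synthesis went the other way, with a median of -0.50, although 2 of its 8 differences were above 0. Of the 8 genes 5 were lower (3.63% of all genes were) and 0 higher (5.62% of all genes were). The largest were Elovl6, a fatty acid elongase (-3.37, adjusted p = 8.9e-11), Acaca, which makes malonyl-CoA (-1.86, adjusted p = 2.75e-11), and Acly, which supplies cytosolic acetyl-CoA to fatty acid and sterol synthesis alike (-1.66, adjusted p = 3.58e-10). Srebf1, named after its values were seen, was lower (-0.67, adjusted p = 0.000129), whereas Srebf2 was not called (0.01). Averaged over the 8 genes, the WT arrays were at 15.90 ± 0.09 (SD, n = 7), above the KO arrays at 14.95 ± 0.07 (SD, n = 5). Fasn, also named after its values were seen, was at an identical 18.79 on all 7 WT arrays, so its difference may be limited by the top of the scale. Between wild types 4 of the 8 genes were higher in total ChREBP WT (13.5% of all genes were) and 0 lower (8.51% of all genes were), with a median of 0.47.

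Of 8 LXR, sterol ester and efflux genes 2 were higher and 0 lower in total ChREBP KO, beside 5.62% and 3.63% of all genes, the shares that apply to each list below too. They were Abcg1, a sterol exporter (0.66, adjusted p = 0.00111), and Nr1h3, the sterol-sensing receptor LXRα (0.38, adjusted p = 0.00232). Of 8 lipoprotein uptake and sterol transfer genes 2 were higher, Vldlr (0.66, adjusted p = 0.0075) and Gramd1a (0.33, adjusted p = 0.0373), and 1 was lower, Tmem97 (-0.47, adjusted p = 0.0401). Of 9 sterol sensing and degradation genes 1 was higher, Ube2g2 (0.39, adjusted p = 0.00581), and of 8 isoprenoid branch genes 0 were called and 2 had an unadjusted p under 0.05. Their medians were 0.06, 0.08, 0.11 and 0.01. In ChREBPβ KO limma called 0 genes of these 5 lists, and 5 of 41 had an unadjusted p under 0.05, where 2497 of 26420 genes did.

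**Figure D5:**
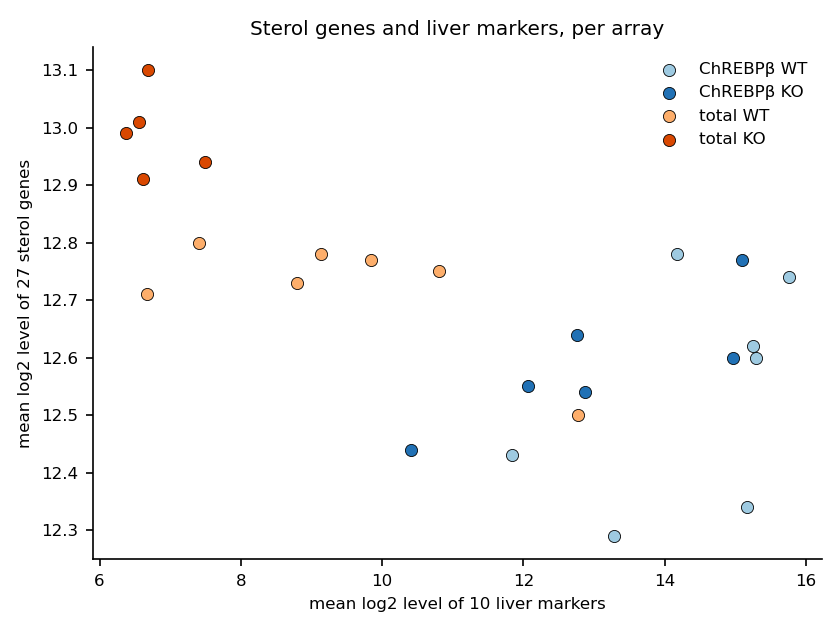
Mean log2 level of 27 sterol genes (vertical) against the mean log2 level of 10 liver markers (horizontal), 1 point per array, coloured by group; neither axis starts at 0. The 5 total ChREBP KO arrays lie at the top left, at liver means of 6.38 to 7.50 and sterol means of 12.91 to 13.10.

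Liver markers and sterol genes are set beside each other by group. In ChREBPβ WT the array with the lowest liver mean (replicate 1, 11.84) had a sterol mean of 12.43 and the array with the highest (replicate 3, 15.76) had 12.74, but the lowest sterol means of the group, 12.29 and 12.34, were on replicates 8 and 6 with liver means of 13.29 and 15.17. In ChREBPβ KO the corresponding arrays (replicate 3, 10.41, and replicate 8, 15.10) had sterol means of 12.44 and 12.77. In total ChREBP WT the sterol mean was 12.71 at the lowest liver mean (replicate 8, 6.67) and 12.50 at the highest (replicate 2, 12.78). Apart from the covariate fits, the part of the liver signal in the differences between lines was not tested. Between knockouts, where the liver means did not overlap, those fits cannot tell liver signal apart from line. Between wild types the liver means overlapped only through ChREBPβ WT replicate 1 and total ChREBP WT replicate 2, so there those fits rest on these arrays.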

How the data were processed

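RNA of perigonadal white adipose tissue from 25 mice was hybridised to single-colour Agilent mouse arrays, 1 array per mouse. Per the file headers and labels, the authors measured spots with Feature Extraction 10.10.1.1, and the deposited scanner files hold spot intensity with flags. The authors' deposited series table holds log2 values of 40561 probes after flag filtering, quantile normalisation and the median over replicated probes. This table was the main source, since the members are defined on it, and its columns correlated with the log2 scanner intensity at 0.9998 or more. Raw brightness was similar between arrays (array medians of 84 to 127), and spots well above background made up 73.0% to 77.9% of each array. Precision is limited by how many arrays each group has.

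Groups and wash batches came from the labels. All 25 arrays entered 1 limma 3.58.1 model (R 4.3.3) with the 4 groups and wash batch as fixed terms (18 residual degrees of freedom). P-values were adjusted by Benjamini-Hochberg over all probes, and a difference was called at adjusted p under 0.05. All p-values here measure the spread between these arrays. Counts over genes use the brightest probe of a gene. Named genes were members called in any comparison, Srebf2, Insig1 and Hmgcs1, and up to 3 called genes per other list by size. The members and lists were chosen with earlier results of these data known. The fit was tested on simulated data. Promoter windows came from RefSeq on GRCm38.p6. Arrays on 2 scan days held whole wash batches. Alternatives were other normalisations, filters, blocks, marker covariates and leaving out each array.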

Additional observations from a re-analysis of the deposited data

Results flagged for a closer look

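Of 108 sets of 1 member in 1 group, 9 held an array far from the rest by Dixon's criterion, which chance gives in about 1 set of 20. Total ChREBP WT replicate 2 accounted for 7 of them. It was the lowest of its group for Mvd (11.23, next 11.68), Idi1 (12.46, next 13.08), Fdft1 (13.38, next 13.59) and Sqle (12.38, next 12.73), and the highest for Scap (12.63, next 12.42), Npc2 (15.09, next 14.62) and Mylip (12.61, next 12.14). This array also had the highest male duct marker mean (15.62) and the highest liver marker mean of its group (12.78), and the part of these in its sterol gene levels was not tested. Fdft1 on total ChREBP KO replicate 7 was at 13.69 (next 13.94), and Dhcr7 on ChREBPβ KO replicate 8 at 10.50 (next 10.05).

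The knockout effect on Msmo1 differed between the lines by 0.92 in the test of the difference itself (adjusted p = 0.000248).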

How the results depend on the processing

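Of 32 calls on single members, 8 were kept in all 16 alternatives and all 25 fits that left out 1 array: Hmgcs1, Msmo1 and Insig1 in total ChREBP KO, Cyp51 between wild types, Sqle, Cyp51 and Msmo1 between knockouts, and Msmo1 in the difference of effects. Leaving out 1 array gave 0 to 0 members called in ChREBPβ KO (median -0.02 to 0.11), 3 to 8 in total ChREBP KO (0.18 to 0.26), 9 to 16 between wild types (0.19 to 0.28), 12 to 14 between knockouts (0.30 to 0.50) and 1 to 4 for the difference of effects (0.15 to 0.23).

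The labels give replicate numbers but not that a number pairs mice. Same-numbered arrays of different groups deviated together with a correlation of over 0.1 in 10 of 29 pairs (-0.60 to 0.45). With the replicate block, 4 members were called in total ChREBP KO (Hmgcs1, Mvk, Msmo1 and Insig1), 0 in ChREBPβ KO, 11 between wild types, 11 between knockouts and 1 for the difference of effects.

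Between wild types, 19 members were called with array quality weights (14 higher, 5 lower), 4 with the liver score, 1 with the 3 marker scores and 6 without the 4 arrays, which last setting was chosen after seeing the data, as was scan day in place of wash batch. Between knockouts 7 members were called with the 3 scores, 5 of the 12 (Idi1, Fdps, Sqle, Cyp51 and Msmo1) with Ebp and Tm7sf2 in addition. For the difference of effects 4 were called with array weights, 3 with the liver score and 4 with the 3 scores. Within wash batches 1, 2 and 4 the median was -0.11, -0.40 and 0.44 in ChREBPβ KO, and within wash batch 2 it was -0.05 between wild types, 0.65 between knockouts and 0.58 for the difference of effects. Wash batch 2 held a single array of each group. Between wild types the sign turned with the liver score for Ebp (0.02), with the 3 scores for Ebp (0.18), Insig2 (0.20), Npc1 (0.16) and Mylip (-0.03), and within wash batch 2 for Fdft1 (-0.05). The cause was not tested. The median member difference stayed above 0 in total ChREBP KO and between knockouts under every setting. The number of mice, 5 to 7 a group, limits the precision.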
